A study of Mus musculus with 16 samples.

Results

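The transcripts described here were 10 long noncoding RNAs (lncRNAs) of the mouse retina, Malat1, Neat1, Miat, Meg3, Rian, Mirg, Gas5, Snhg1, Snhg11 and Rmst. They were taken by gene symbol from the deposited table of all genes, which held 25905 rows, and each symbol had 1 row. The samples were whole retinas from the right eyes of wild type male C57BL/6 mice. Their age is given as 10 weeks, which the study states for the mice at flight, before the time in orbit. All retinas were collected after the flight mice had returned to Earth. The spaceflight group of 8 mice had lived in orbit, and the ground control group of 8 mice had lived on Earth in the same hardware, on the same food and at matched temperature and CO2. RNA sequencing libraries were stranded, depleted of ribosomal RNA and made from sheared cDNA. Each value below is the mean that the authors deposited for a gene over all 16 libraries of both groups, termed the mean normalized count, which is the read count divided by the size factor of its library. The deposited columns of counts per library were named with laboratory codes that matched no mouse and no group, so they were not used. A difference between spaceflight and ground control mice, a value per mouse and a spread were therefore not analysed here, and no order of levels below was set against the spread between mice. In whole tissue, fewer cells of a type and less RNA per cell cannot be told apart.

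Long noncoding RNAs are transcribed and often spliced like messenger RNAs, but most act as RNA. Malat1 gathers in nuclear speckles, bodies rich in splicing factors. Neat1 is the scaffold of paraspeckles, nuclear bodies that hold proteins such as Sfpq and Nono. Miat, also known as Gomafu, forms a separate nuclear pattern in neurons, those of the retina among them. Meg3, Rian and Mirg lie in the imprinted Dlk1-Dio3 domain and are transcribed from the chromosome inherited from the mother. Rian carries many small nucleolar RNAs (snoRNAs) and Mirg many microRNAs. Gas5, Snhg1 and Snhg11 are host genes whose introns carry snoRNAs, the guides for chemical modification of other RNAs. Rmst takes part in neural differentiation as a partner of the transcription factor Sox2.

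Sequence features known for these RNAs were read from the reference transcripts and are shown for the members at both ends of the order of levels. The 3′ region of Malat1 holds a run of A that folds with U-rich stretches into a triple helix and protects the end of the RNA. Bases 6584 to 6705 of the reference transcript Malat1-201 are printed with the run of 12 A in capitals, which ends 298 bases before the end of that transcript.
Malat1: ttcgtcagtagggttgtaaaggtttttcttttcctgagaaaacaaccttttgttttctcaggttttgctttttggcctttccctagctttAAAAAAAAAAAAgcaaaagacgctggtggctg
Miat is known for repeats of TACTAAC, the branch point motif of introns, which the splicing factor Sf1 binds. Bases 5569 to 5649 of Miat-205 hold 3 of its 6 copies, printed in capitals.
Miat: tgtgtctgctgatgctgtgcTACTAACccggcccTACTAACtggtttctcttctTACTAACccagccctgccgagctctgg
The motif was searched on the transcribed strand in the longest transcript of type lincRNA of 6051 reference genes, and copies did not overlap. At least 1 copy was found in 226 of them (3.73%), and only Miat held 6 or more, also among the 71 genes of at least 5000 bases. Neat1 had 1 copy, and Malat1, Meg3, Rmst, Snhg1, Gas5, Rian and Mirg had 0 in the transcripts searched, which were 709 bases long in Snhg1 and 665 in Gas5. Snhg11 was not searched, since its reference transcripts are of another type.

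Of the 10 lncRNAs, 9 stood at a mean normalized count of at least 10, a level reached by 12374 of all rows, and Miat was listed at 0. Malat1 stood at 99339, the rank of 4 among all rows and 1.42% of the summed mean normalized counts of all genes. The nearest rows were the noncoding RNA of the 7SK particle, Rn7sk, above it at 140899, and the ribosomal RNA Rn18s below it at 83450. Snhg11 stood at 1703, Gas5 at 827, Rian at 553, Meg3 at 342 and Neat1 at 216. Snhg1 stood at 136, Rmst at 119 and Mirg at 23.9. Among the rows at the minimum of 10, the levels of 6 lncRNAs (Malat1, Snhg11, Gas5, Rian, Meg3 and Neat1) were above the middle of the rank order, and those of Snhg1, Rmst, Mirg and Miat were below it. Among these rows, the name "abundant" therefore described only some of them by read count. Among all rows, 9 of the 10 were above the middle, and among rows at a minimum of 1 the number was 8. What the 0 of Miat can mean is taken up below.

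A long transcript gathers more reads at the same number of molecules, so levels of different genes were compared per kilobase (kb) of the longest reference transcript. These lengths came from GENCODE M21 by gene symbol and were not compared with the gene models on which the authors' reads were counted. A value per kb can therefore rest on a length unlike that of the counted transcript. Per kb, the median over the 11725 rows at the minimum of 10 with a length was 57.5. Malat1 stood at 14226 per kb, 247 times that median and the rank of 5. Gas5 stood at 324 per kb and Snhg11 at 290 per kb, 5.63 and 5.05 times the median. Rian stood at 68.4 per kb, 1.19 times the median. The others were below it, with Snhg1 at 49.7, Rmst at 41.0, Meg3 at 23.5, Neat1 at 10.4 and Mirg at 6.25 per kb. Per kb of the longest transcript, 4 of the 10 lncRNAs were thus above the middle of the rank order, beside 7 of 10 per kb of the median transcript and 6 of 9 per kb of the shortest transcript that the annotation links to RefSeq. With both of these other lengths, Malat1, Gas5 and Snhg11 again led in that order, and Mirg was again the lowest of those above 0. The places between them moved, since the ratio of Rmst to Meg3 was 1.75 with the longest transcript, 0.245 with the shortest and 0.375 with the median. Rian had no transcript linked to RefSeq and has no value with the shortest.

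**Figure D1:**
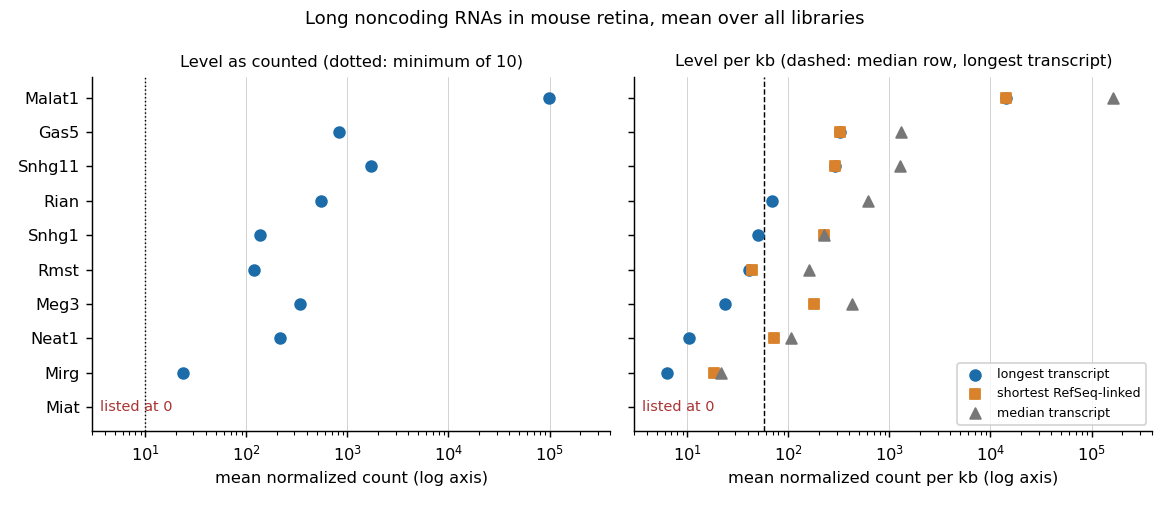
Mean normalized count over all libraries of the 10 lncRNAs as counted (left) and per kb with each of the 3 lengths (right), on log axes, with the dotted line at the minimum of 10 and the dashed line at the median row of 57.5 per kb, which applies to the longest transcript only. Malat1 stands at 99339 counts, far to the right of the other 9 RNAs, and Neat1, Meg3 and Snhg1 move most between the longest and the shortest transcript.

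The RNAs of nuclear bodies had levels far apart. Malat1 and Neat1 are neighbouring genes on the same strand of chromosome 19. Malat1 was read 1371 times as high per kb as Neat1 with the longest transcripts. The longest Neat1 transcript, Neat1-201, has 20771 bases and 1 exon, and the shortest one linked to RefSeq has 3004 bases. With the shortest, Neat1 stood at 71.7 per kb, and Malat1 was 198 times as high. With the median transcripts, Malat1 was 1534 times as high. The mean normalized count does not say how many Neat1 reads came from the long and the short form. As counted, Neat1 lay between the kinase gene Plk2 and Gm5081, at 215.6 and 215.4. Miat, with 7 exons and 9163 bases in its longest transcript, was the only member listed at 0, and 6238 of all rows were listed at 0 too. Of the 1135 rows typed as lncRNA by RefSeq, 223 (19.6%) were listed at 0. A listed 0 does not separate an absent RNA from reads that were not assigned to the row. Miat had 2 transcript records in the authors' count file, a point taken up under transcript records below.

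The transcripts that encode proteins of these bodies were also measured, from lists of 13 genes of paraspeckle proteins and 14 genes of speckle and splicing proteins. Of the paraspeckle genes, 12 of 13 stood at a mean normalized count of at least 10, with a median of 519 per kb over those 12. Among the highest were Matr3 at 4306, Hnrnpk at 3829, Ewsr1 at 3088 and Sfpq at 2709, all genes of RNA-binding proteins. Of the speckle and splicing genes, 13 of 14 reached the minimum, with a median of 233 per kb. Srrm2, a scaffold of speckles, was the highest at 9094, followed by Pnn at 1325, Celf3 at 1234, Srsf3 at 973 and Srsf6 at 822. With the longest transcripts, Sfpq stood at 782 and Nono at 647 per kb beside 10.4 for their scaffold Neat1. Neat1 stood at 71.7 per kb with the shortest transcript linked to RefSeq and at 107 with the median transcript. Sfpq and Nono are not given with these lengths. Srrm2 stood at 1026 per kb beside 14226 for Malat1. Genes of known protein partners of the Miat RNA were measured too, with Celf3 at 367, Sf1 at 56.4 and Qk at 33.9 per kb. Celf3 had 1 transcript record in the count file, Sf1 had 2 and Qk had 3. Nono, Sf1 and Qk were named after their values were seen.

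The lncRNAs of the Dlk1-Dio3 domain, Meg3, Rian and Mirg, lie in this order on the same strand of chromosome 12. Their mean normalized counts were 342, 553 and 23.9. Per kb, Rian was 2.91 times as high as Meg3 and 10.9 times as high as Mirg with the longest transcripts, and 1.44 and 28.5 times as high with the median transcripts. Mirg was thus the lowest of the trio with both lengths. Meg3 had 3 transcript records in the count file, and Rian and Mirg had 1 each. Of the 9 names listed for the domain, 8 had a row and 6 reached the minimum of 10. Besides the trio these were Begain, a gene of a synapse protein next to the domain, at 339, the deiodinase gene Dio3 at 16.9 and its antisense RNA Dio3os at 12.2. Rtl1, a retrotransposon-derived gene expressed from the paternal chromosome, stood at 0.455, and Dlk1, an inhibitor of Notch signalling, was listed at 0. Dlk1 had 5 transcript records in the count file. Per kb of the longest transcript, the maternally expressed Rian, Meg3 and Mirg stood at 68.4, 23.5 and 6.25. The paternally expressed Dio3 and Rtl1 stood at 8.30 and 0.0716, so Mirg lay below Dio3 with that length. As counted, Mirg lay above Dio3. With the shortest transcript linked to RefSeq and the median transcript, Mirg stood at 18.4 and 21.7 per kb, and Dio3 is not given with these lengths. Rtl1, Dlk1 and Dio3os were named after their values were seen.

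Mirg is the host of 10 microRNA genes in RefSeq, with 19 mature microRNAs. These carry 18 different seeds, the bases 2 to 8 that pair with target RNAs. The pair that shares a seed is printed 5′ to 3′ with the seed in capitals, because miR-453 belongs to the only microRNA row within Mirg above 0 and miR-496a-5p to a row at 0.
mmu-miR-453: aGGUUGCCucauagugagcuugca
mmu-miR-496a-5p: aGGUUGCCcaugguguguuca
They lie at chr12:109735669-109735692 and chr12:109739132-109739152 of GRCm38.p6, on the plus strand, and the sequences are those of RefSeq. Of the 10 microRNA genes, 9 had a row, Mir453 stood at 1.43 and the other 8 were listed at 0. From Meg3 to Mirg there are 60 microRNA genes in RefSeq. Of these, 49 had a row and 43 of the 49 (87.8%) were listed at 0, with the highest, Mir341 in Rian, at 2.56. Over the whole table, 387 of 416 microRNA rows (93.0%) were listed at 0. The rows of microRNA genes in these libraries held next to no reads, both in this domain and elsewhere, so the mature microRNAs of Mirg and Meg3 were not measured by them.

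The snoRNA hosts Gas5, Snhg11 and Snhg1 were higher per kb than most lncRNA rows. Gas5 and Snhg11 were close to each other, with a ratio of 1.11 per kb with the longest transcripts and 1.03 with the median transcripts. Snhg1 was lower, and Gas5 stood at 6.51 times its level per kb. That gap depended on the Snhg1 transcript used, since the longest has 2728 bases and the shortest linked to RefSeq has 605. With the shortest transcripts, Snhg1 stood at 224 per kb, and Gas5 was 1.44 times as high. In Gas5 the shortest linked to RefSeq is also the longest, with 2556 bases, so only the length of Snhg1 changed. With the median transcripts, of 629 bases in Gas5 and 602.5 in Snhg1, Gas5 was 5.84 times as high. Snhg11 carried 1 transcript record, and this was a messenger RNA record, while the records of the other 9 genes were not. The longest transcripts have 4 exons in Gas5, 2 in Snhg1 and 5 in Snhg11.

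Of 22 names listed as snoRNA hosts and related genes, 13 had a row, and all 13 stood at a mean normalized count of at least 10. The highest were Rmrp, the RNA of RNase MRP, at 15812, then Snhg11, Gas5, Rian and Snhg12, the last at 182. Rmrp is itself a short catalytic RNA. Without it, 12 lncRNA rows remained, of which 11 had a length, with a median of 90.9 per kb and a range from 35.5 to 648. The median over all 303 lncRNA rows at the minimum with a length was 20.4 per kb. All 4 members on this list, Gas5, Snhg11, Rian and Snhg1, lay above 20.4, and Gas5 and Snhg11 also lay above 90.9.

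The snoRNAs inside these hosts could be followed only in part. RefSeq places 8 snoRNA genes within Gas5, 8 within Snhg1, 11 within Rian and 2 within Snhg11. Rows were found for 1, 1, 2 and 0 of them. Snord22 in Snhg1 stood at 431, Snord47 in Gas5 at 1.03, and the 2 snoRNAs in Rian, AF357359 and AF357355, at 104 and 0.336. Of all 102 snoRNA rows of the table, 10 were listed at 0 and 16 reached the minimum of 10, the highest at 932. Gas5 stood at 827 beside Snord47 at 1.03, and Snhg1 at 136 beside Snord22 at 431. These are read counts of genes of unlike length and are given side by side only. With 1 snoRNA row in each of these hosts, no relation between host and snoRNA level can be read from them. How well these libraries capture snoRNAs was not tested.

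Rmst stood at 119 as counted, between Aaas and Snhg9. Per kb it stood at 41.0, 0.713 times the median row and 2.01 times the median lncRNA row. A row under its older symbol, Gm3515, stood at 49.5, so reads of this gene may be divided between both rows, and the level of the Rmst row may be too low. No other member had a row under an older symbol.

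Among the 303 lncRNA rows at the minimum with a length, Malat1 had the highest level per kb of the longest transcript. Next was E130218I03Rik at 1714 per kb, and Peg13, an imprinted lncRNA of the brain, stood at 710. Gas5 had the rank of 11 and Snhg11 that of 13. Rian, Snhg1 and Rmst followed at 53, 76 and 93. Meg3 had the rank of 138, near the middle, and Neat1 and Mirg were in the lower part at 228 and 264. Relative to the median lncRNA row, Meg3 stood at 1.15 times, Neat1 at 0.508 times and Mirg at 0.306 times its level per kb. These ranks and ratios were not computed with the other lengths. Per kb among all genes at the minimum, Meg3 stood above 28.3% with the longest transcript, 76.0% with the shortest and 78.1% with the median. The values were 14.9%, 50.5% and 46.9% for Neat1, and 8.35%, 19.3% and 16.4% for Mirg. All lncRNA rows together summed to a mean normalized count of 142186, 2.03% of all genes. Malat1 alone made up 69.9% of that sum and the other 9 lncRNAs together 2.76%.

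**Figure D2:**
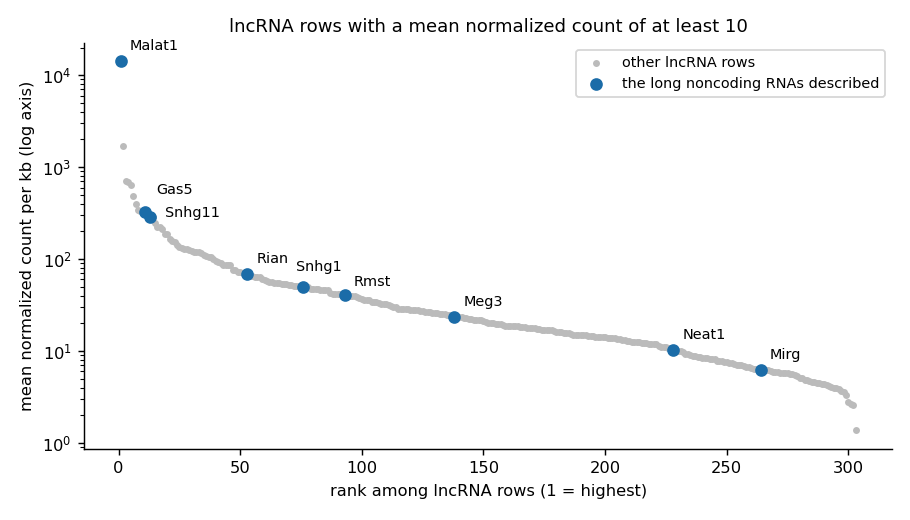
Mean normalized count per kb of the longest transcript (log axis) of the 303 lncRNA rows with a mean normalized count of at least 10, ordered by rank, with the 9 lncRNAs described here as large points and the other rows in grey. Malat1 stands alone at the top with 14226 per kb, and Mirg lies at rank 264.

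Other lncRNAs of interest in the nervous system or known for imprinting were taken as a list of 28 names, which held Malat1, Neat1, Miat and Rmst too, and also the protein-coding gene Kcnq1, at 1.59. Of the 21 with a row, 12 reached the minimum of 10 and 2 were listed at 0, Miat and Dlx6as. After Malat1 the highest were Peg13 at 3355, the silencing RNA Kcnq1ot1 at 1524, Vax2os1, a retinal antisense RNA, at 1004 and Tug1, needed for photoreceptors, at 747. Per kb of the longest transcript these stood at 710, 16.4, 247 and 111. With that length, Meg3 and Rmst lay between Kcnq1ot1 and Tug1, and Neat1 and Mirg lay below Kcnq1ot1.

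**Figure D3:**
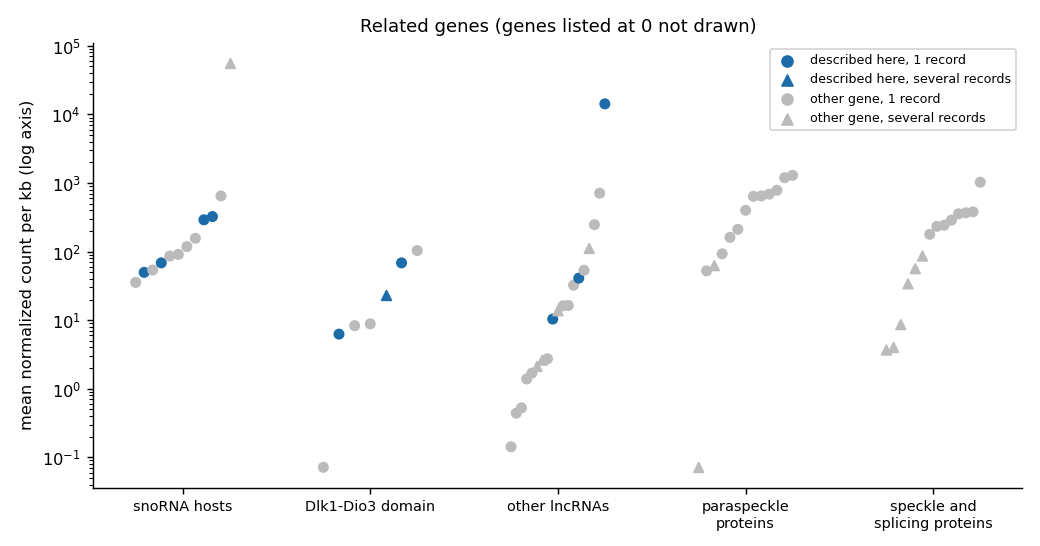
Mean normalized count per kb (log axis) of the genes of the 5 lists, with the lncRNAs described here in blue, other genes in grey, and triangles for genes with several transcript records in the count file. Most genes of paraspeckle, speckle and splicing proteins with 1 record lie above 100 per kb, and the 8 with several records stand at 86.1 per kb or less.

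The count file was organised by transcript record, and a gene could have several. Of the 10 lncRNAs, 8 had 1 record, Miat had 2 and Meg3 had 3. Over all rows, the median mean normalized count was 12.9 for the 22086 genes with 1 record and 0.652 for the 2704 genes with 2, a ratio of 19.9. Listed at 0 were 22.6% and 34.0% of them. Over genes whose records were all messenger RNA records the ratio was 32.3. Within lncRNA rows it was 0.760, with medians of 1.67 in 1083 rows and 2.19 in 37 rows, so the medians did not show the gap there. Listed at 0 were 19.4% of these lncRNA rows with 1 record and 27.0% of those with 2, and 30.3% and 27.0% reached the minimum of 10. Among the genes of paraspeckle, speckle and splicing proteins, all 19 with 1 record stood at a mean normalized count of at least 100, beside 4 of 8 with several. Named after their values were seen, Cpsf7 at 0.249, U2af1 at 4.17, Srsf1 at 19.7 and Srsf5 at 30.0 had several records. Whether the number of records had a part in the 0 of Miat, the 0 of Dlk1 or the level of Meg3 was not tested. Meg3 stood above 97.6% of the 1090 genes with at least 3 records. Among those at the minimum of 10 it stood above 90.0%, compared with 67.1% among all rows at that minimum.

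**Figure D4:**
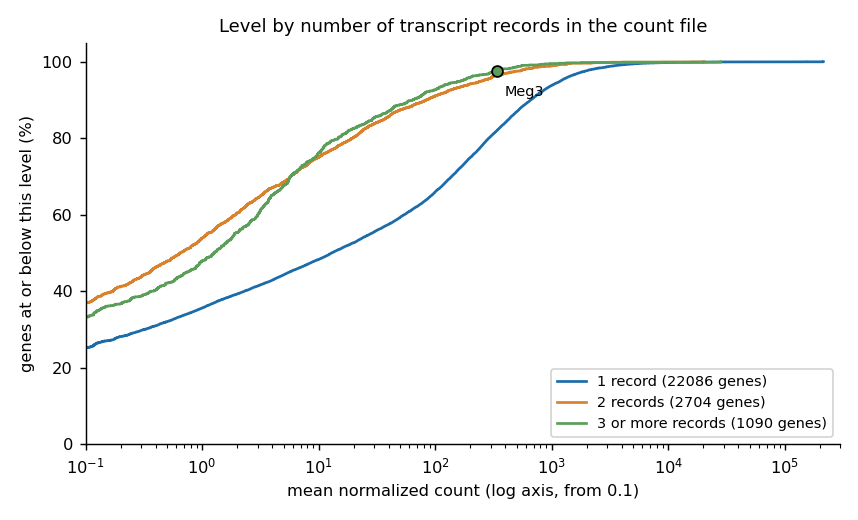
Share of genes at or below each mean normalized count (log axis, from 0.1) for genes with 1, 2 and at least 3 transcript records in the count file, with Meg3 marked on the curve of its class. The curves of genes with several records lie above that of genes with 1 record at low levels, and Meg3 stands above 97.6% of its class.

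The labelled tissue was checked against markers of its cell types. The markers of rods stood at a mean normalized count of at least 10 in 6 of 6 cases. All measured markers of cones, bipolar cells, and amacrine and horizontal cells also reached the minimum, led by Opn1sw, Prkca and Gad1. Ganglion cells reached it with 4 of 5 markers and Müller glia with 3 of 4, led by Nefl and Glul. Microglia reached it with 3 of 3, led by Cx3cr1 at 39.0, and endothelium with 1 of 2, Cldn5 at 51.1. The 3 retinal markers under the minimum, Rbpms, Rlbp1 and Pecam1, had several transcript records. Trpm1 and Nrl, with 2 records each, stood above the minimum at 2866 and 88.9. Whether the number of records had a part in these levels was not tested. Markers of neighbouring tissues were also present. Their sums were 1154 for the lens, with Cryaa at 898, 755 for the pigment epithelium, with Ttr at 540, and 413 for melanocytes, with Dct at 364. These were above the sums of 101 for microglia and 51.6 for endothelium. The 5 sums ran over 4, 4, 2, 3 and 2 markers with a row, in that order, so their sizes are not alike in basis. Those of cornea, muscle and blood, led by Krt12, Acta1 and Hbb-b1, summed to 22.8, 20.6 and 10.9. How much of each lncRNA came from such cells was not tested.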

How the data were processed

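Per the study's methods, Trimmomatic removed adapters, TopHat2 aligned the reads to an NCBI mouse build older than GRCm38, HTSeq gave counts, and the authors ran DESeq2 1.22.2 in R 3.5.1 on these counts. Of the deposited table of all genes, only the symbol and the mean were used. That mean is a signal value, the authors' mean over all libraries of counts divided by size factors, with no SD. How the authors joined transcript records to gene rows, and whether counting used strand, was not given in the sources used here. The other columns hold the authors' own comparison (fold changes, standard errors, statistics and p-values) and were not used.

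Each of 2 deposited count files holds 16 columns whose names match no sample, and these 32 columns were not used. The planned edgeR test of spaceflight against ground control could not be run, and depth per library is not analysed here, so levels are a description with no test. From the count file, the names of 31616 transcript records and of their genes were read, and 5 summary lines that name no transcript were left out. For 25 rows, whose symbols had become dates, no record was found.

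Of the rows, 20376 were matched to RefSeq by symbol and 2677 by an older symbol, for the gene type and hosted small RNAs. Lengths and transcript sequences came from GENCODE M21, for 94.8% of rows at the minimum of 10 and 89.1% of lncRNA rows at it. Coordinates are those of RefSeq and were not compared with the authors' mapping. The members and lists were chosen with earlier results of these data known. Named were each member, its nearest rows where they help, the 5 highest genes of each list and the highest marker of each class, except that some of these genes are not reported here. Genes outside this rule (those said to be so, Dlx6as, Kcnq1, E130218I03Rik, Snhg9, Trpm1, Nrl and the 3 markers under the minimum) were chosen after their values were seen. The reading of percentiles and the ratio of medians by record number were checked on levels of these data with a known answer. The other steps had no such check. Python 3.11.15, pandas 2.3.3, numpy 2.4.6 and matplotlib 3.10.9 were used.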

Additional observations from a re-analysis of the deposited data

How the results depend on the processing

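The number of the 10 lncRNAs above the middle of the rank order was 6 among rows with a mean normalized count of at least 10. It was 9 among all rows, 8 among rows at a minimum of 1, 6 among protein-coding rows and 4 per kb of the longest transcript. With choices made after seeing the data, it was 7 per kb of the median transcript, 6 among rows with the same number of transcript records, and 6 of 9 per kb of the shortest transcript linked to RefSeq. Of the 68 genes with a row in the lists, 55 reached the minimum of 10, 61 a minimum of 1 and 43 a minimum of 100. The ratio of median levels between genes with 1 and 2 records was 19.9 over all rows and 32.3 over messenger RNA records, and the cause was not tested.

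No paired analysis was possible because the deposited columns per library carry no replicate number of the labels. For the same reason the DESeq2 fit, the other threshold and filter, the fits without each library and the spread between mice were not run. Depth per library is not analysed here, so no upper limit is given for a value of 0, such as that of Miat.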
